A study of Mus musculus with 115 samples.

Results

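The genes described here are the nuclear genes named for mitochondrial respiratory complex I (NADH:ubiquinone oxidoreductase), taken as every amplicon row whose gene symbol begins with Nduf. There were 40 such rows among 23930 amplicons. By the symbol, 7 were assembly factors (Ndufaf1 to Ndufaf7) and the rest carried subunit names. Of the latter, 31 are complex I subunits, and 2 are not counted as such today: Ndufa4, now placed in complex IV, and its paralogue Ndufa4l2. Among the 31 subunits, 8 belong to the NADH-oxidising N module, 6 to the quinone-reducing Q module, 8 to the proximal and 9 to the distal part of the membrane arm, and 7 are core subunits of the matrix arm. The tables read here hold no amplicon for Ndufa7, Ndufa12, Ndufab1, Ndufb1, Ndufb4, Ndufs5 or Ndufaf8, nor for any gene of the mitochondrial DNA, so the ND6 transcript itself was not measured.

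Complex I passes electrons from NADH to ubiquinone and couples this to proton pumping across the inner mitochondrial membrane. Its subunits come from both genomes: the membrane arm is built around the ND proteins encoded by mitochondrial DNA, ND6 among them, while the core of the matrix arm and all accessory subunits come from the nucleus. The complex is put together from modules, each held by its own assembly factors, most of which leave before the enzyme is complete. Heart muscle is rich in mitochondria, and Ant1 (gene Slc25a4) is the heart's main carrier exchanging mitochondrial ATP for cytosolic ADP.

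Heart RNA was read as amplicon counts over the mouse transcriptome. The mice were C57BL/6JEiJ, C57BL/6JEiJ ANT1 -/- (called Ant1-null here) or C57BL/6JEiJ ANT1 -/- with the mitochondrial ND6 P25L allele (Ant1-null ND6). All had a pericardial injection of 2.5e+11 vector genomes of AAV2/9Des-Gfp (the control vector) or AAV2/9Des-Gfp-mAnt1, which adds mouse Ant1, so every group carried vector and Gfp. Libraries with the same title number, genotype, title code and treatment label were summed as 1 heart, which gave 22 hearts from 110 libraries. With the control vector there were 4 wild type, 3 Ant1-null and 3 Ant1-null ND6 hearts, and with mAnt1 3, 4 and 3. A further 2 Ant1-null ND6 hearts, numbers 61 and 91, have a title code and a treatment label that name different vectors and were kept apart. The same conflict was found in 2 libraries numbered 80, which were left out. Wild type mAnt1 heart 80 rests on the other 2 libraries of that number, and its total was the lowest of all hearts. The study collected hearts 1, 3, 6, 9 and 12 months after injection, but the labels do not say when each heart was taken, and they give neither age nor sex. Nothing in the labels states that the hearts of a group came from separate animals, so p-values measure the spread between these hearts.

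Heart totals ran from 16827518 to 54779297 counts. All 40 genes passed the filter on low counts, and the lowest count of any of them in any heart was 301. The 31 subunits together took between 2.17% and 2.66% of a heart's counts. Slc25a4 lay between 8464 and 11380 CPM (counts scaled to a common library total) in wild type hearts and between 0.219 and 2.03 CPM in Ant1-null and Ant1-null ND6 hearts with the control vector. With mAnt1 it read 174 to 241 CPM in Ant1-null hearts and 55.6, 66.7 and 0.732 CPM in Ant1-null ND6 hearts 37, 5 and 8. The heart labelled mAnt1 number 8 thus read within the control-vector range, while hearts 61 and 91 read 169 and 151 CPM. The 8 cardiomyocyte markers summed to between 61410 and 73720 CPM in every heart. In bulk RNA, fewer cells of a type and less RNA per cell cannot be told apart. Levels of different amplicons are not set against each other, because amplicons do not amplify equally well.

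Hearts 27 (Ant1-null, mAnt1) and 37 (Ant1-null ND6, mAnt1) stood apart. Each was spread over 8 libraries in 2 tables, and the libraries of 1 heart differed more than elsewhere: the median SD of log2 CPM between them, taken over the 40 genes, was 0.39 in heart 27 and 0.19 in heart 37, against 0.042 to 0.15 in the other 20. In heart 37, 19 of 40 genes were lower in every library of one table than in every library of the other, and 4 were higher; in heart 27 these counts were 12 and 2. Ndufc2, a proximal-arm subunit, read 124 to 166 CPM in one table of heart 37 and 16.5 to 31.9 CPM in the other. Results that rest on these hearts are also given without them.

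The hearts fall into 6 sets whose libraries sit in the same tables. No set holds hearts of both vectors (hearts 61 and 91, of unclear vector, sat with control-vector hearts 22 and 70), so vector and table cannot be told apart. Genotypes did share sets. With the control vector, Ant1-null heart 35 sat with wild type hearts 23, 24 and 25, Ant1-null hearts 36 and 38 with Ant1-null ND6 hearts 20 and 21, and wild type heart 70 with Ant1-null ND6 heart 22. With mAnt1, Ant1-null heart 20 sat with all 3 wild type hearts, Ant1-null hearts 21 and 22 with Ant1-null ND6 hearts 5 and 8, and heart 27 with heart 37.

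The sequences shown next are the 250 bases before the start used in the RefSeq promoter table (GRCm38.p6) for the assembly factors Ndufaf1 and Ndufaf4 and the distal-arm subunit Ndufb7, shown because the RNA of these 3 genes carries most of the calls described below. Ndufaf1 lies on the minus strand at chr2:119655446-119662839, Ndufaf4 on the plus strand at chr4:24898083-24905001 and Ndufb7 on the plus strand at chr8:83566758-83571623. The stretches are chr2:119662835-119663084 (minus strand), chr4:24897833-24898082 and chr8:83566508-83566757, each written 5′ to 3′ in the direction of transcription, with capitals marking a motif match. For Ndufaf1 that start lies a few bases inside the gene's bounds given here, so its stretch overlaps the gene's first bases.
Ndufaf1: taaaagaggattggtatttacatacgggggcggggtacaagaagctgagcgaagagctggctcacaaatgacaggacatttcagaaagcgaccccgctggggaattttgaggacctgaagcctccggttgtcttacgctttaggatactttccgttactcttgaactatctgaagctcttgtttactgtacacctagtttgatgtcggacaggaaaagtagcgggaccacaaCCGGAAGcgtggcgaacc
Ndufaf4: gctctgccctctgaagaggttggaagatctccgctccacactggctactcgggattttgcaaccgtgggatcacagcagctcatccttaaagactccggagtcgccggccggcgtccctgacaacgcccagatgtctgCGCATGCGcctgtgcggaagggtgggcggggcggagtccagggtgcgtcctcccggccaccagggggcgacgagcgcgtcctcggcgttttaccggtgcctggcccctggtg
Ndufb7: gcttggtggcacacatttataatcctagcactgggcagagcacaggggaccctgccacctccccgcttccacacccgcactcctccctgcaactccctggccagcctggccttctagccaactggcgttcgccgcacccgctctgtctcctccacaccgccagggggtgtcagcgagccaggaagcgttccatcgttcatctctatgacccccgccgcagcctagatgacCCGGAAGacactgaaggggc
The capitals are an ETS motif, CCGGAAG on either strand, 18 bases before the table's start for Ndufaf1 and 20 bases before that for Ndufb7, and the NRF1 core CGCATGCG 112 bases before that for Ndufaf4. ETS-family factors such as GABP, and NRF1, are known regulators of nuclear respiratory genes. On either strand of the same windows, CCGGAAG was found in 4 of the 34 members with a promoter entry (11.8%; Ndufaf1, Ndufb6, Ndufb7 and Ndufs3) and in 6.91% of all 32851 promoters. The palindrome CGCATGCG was found in 3 of 34 (8.82%; Ndufa8, Ndufa11 and Ndufaf4) and in 1.55% of all promoters. The ERR motif TCAAGGTCA and the YY1 motif AAGATGGC occurred in 0 of 34 member promoters, against 0.387% and 1.56% of all. The ETS motif ends in the letters AAG with which the YY1 motif begins, so these can overlap. The matches describe letters in a window, and no binding was measured. Ndufa2, Ndufa4l2, Ndufaf6, Ndufb9 and Ndufs1 are among those without an entry.

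The first question was whether complex I transcripts differ when Ant1-null hearts also carry the ND6 allele. Averaged over both vectors, 1 of the 40 genes passed the test, against 1.87% of 15403 genes tested and 0.701% called lower: Ndufaf4, which fell by 0.30 on the log2 scale (SE 0.077, edgeR quasi-likelihood test, adjusted p = 0.0485). No gene rose, and 4 of 40 had an unadjusted p under 0.05. Counts at an unadjusted p, here and below, lack the share of all genes at that threshold and are not read as a result. None of the 31 subunits passed in edgeR. DESeq2 called Ndufb5 beside Ndufaf4, against 4.34% of all genes called by DESeq2. Subunit log2 differences ran from -0.18 for Ndufa8, a twin-CX9C protein of the proximal arm, to 0.13 for Ndufs1, an iron-sulfur core subunit of the N module. The median difference of the 40 genes was -0.07, with 34 below 0, beside a median of -0.0043 over all genes tested.

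For no gene did the 95% interval reach 1.5-fold in either direction over both vectors. The bounds over the 40 genes ran from -0.46 to 0.30 on the log2 scale. Within the control vector 0 of 40 genes passed in edgeR, against 1.06% of all genes, with 3 at an unadjusted p under 0.05. DESeq2 called 1 of 40 there, against 3.22% of all genes. Within mAnt1 0 of 40 passed in edgeR, against 1.66% of all genes, with 1 at an unadjusted p under 0.05. DESeq2 called 0 of 40 there, against 4.01% of all genes. The effect of the allele differed between vectors for 0 of 40 genes in edgeR's test of that difference, against 1.42% of all genes. An unadjusted p under 0.05 was found for 1. For the same difference DESeq2 called 0 of 40, against 2.87% of all genes.

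**Figure D1:**
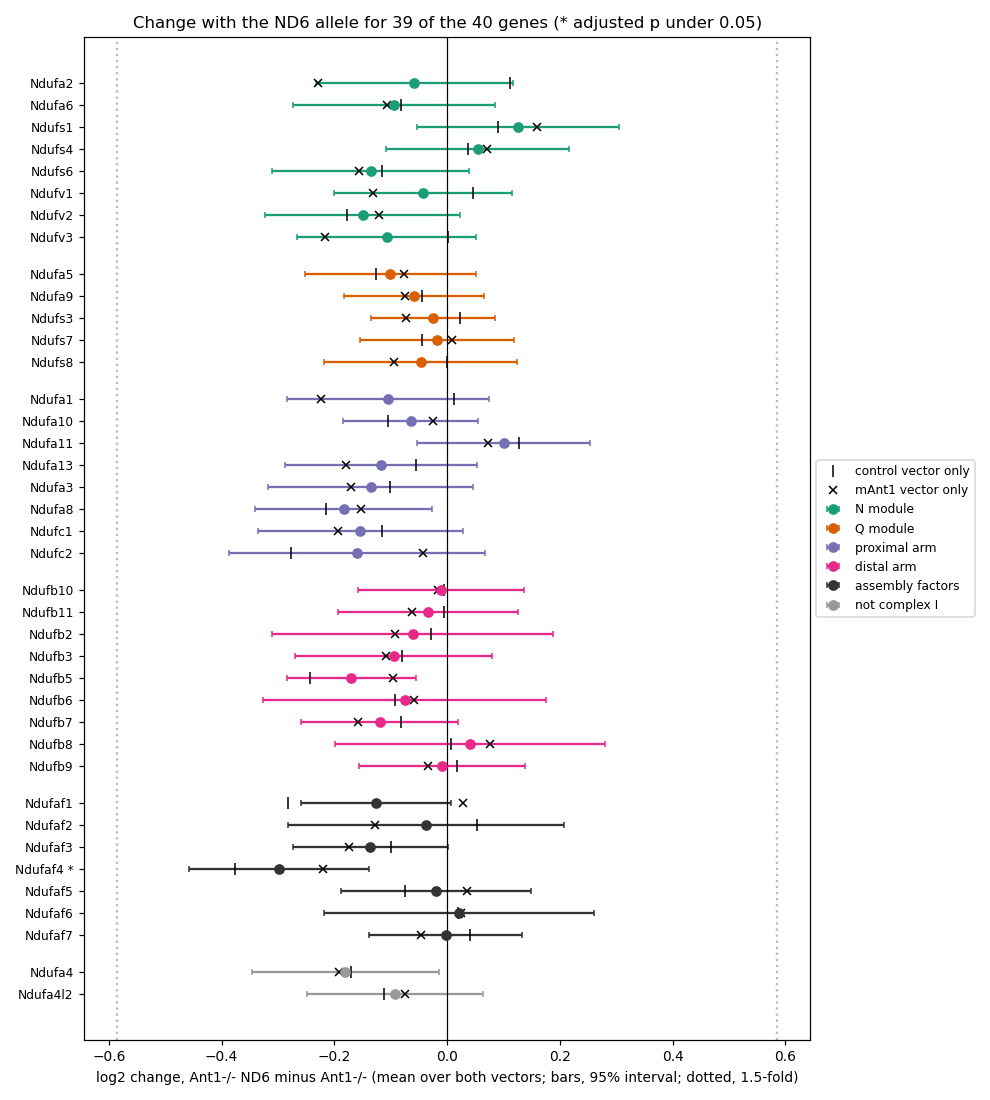
Difference in log2 level between Ant1-null ND6 and Ant1-null hearts for 39 of the 40 genes, grouped by module, as the mean over both vectors with its 95% interval (bars); smaller marks give the control-vector and mAnt1 differences alone. Ndufaf4, at -0.30, carries the only asterisk (adjusted p under 0.05), and no interval reaches the dotted lines at 1.5-fold.

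Ndufaf4 is known to bind Ndufaf3 and to act where the Q module joins the membrane arm. In control-vector hearts it read 169, 171 and 195 CPM in Ant1-null hearts 35, 36 and 38, and 135, 142 and 135 CPM in Ant1-null ND6 hearts 20, 21 and 22. With mAnt1 it read 148, 137, 141 and 99.8 CPM in Ant1-null hearts 20, 21, 22 and 27, and 110, 104 and 123 CPM in Ant1-null ND6 hearts 5, 8 and 37. The control-vector groups did not overlap, whereas with mAnt1 heart 27 lay below every ND6 heart. Hearts 61 and 91 read 141 and 136 CPM.

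Within shared tables Ndufaf4 was lower in both ND6 hearts than in both Ant1-null hearts in the control-vector set (135 and 142 against 171 and 195 CPM) and in one mAnt1 set (110 and 104 against 137 and 141 CPM). In the set of hearts 27 and 37 the order was the opposite. There the single libraries overlapped, at 31.1 to 137.9 CPM in heart 27 and 79.7 to 154 CPM in heart 37. By vector, the log2 difference was -0.38 (SE 0.11, adjusted p = 0.105) with the control vector and -0.22 (SE 0.11, adjusted p = 0.30) with mAnt1 in the same edgeR fit, and neither passed. Without hearts 27 and 37 the difference over both vectors was -0.39 (adjusted p = 0.000774). Leaving out any 1 of the other 11 hearts ended the call, with adjusted p from 0.0617 (without Ant1-null heart 35) to 0.1295 (without heart 8). Counting hearts 61 and 91 as mAnt1 also ended it, whereas counting them as control kept it (edgeR adjusted p = 0.0189). In all, 16 of 22 alternatives did not keep the call.

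Its partner Ndufaf3 read 82.9, 83.8 and 91.0 CPM in control-vector Ant1-null hearts and 82.1, 81.0 and 77.7 CPM in ND6 hearts, a log2 difference of -0.10 (SE 0.096) that did not pass. Ndufaf1 belongs to the complex that builds the ND2 part of the membrane arm. It was lower in all 3 control-vector ND6 hearts (156, 169 and 141 CPM) than in all 3 Ant1-null hearts (187, 193 and 186 CPM), with a log2 difference of -0.28 (SE 0.093, edgeR adjusted p = 0.146). With mAnt1 the same genotypes overlapped, at 136 to 156 and 135 to 151 CPM, and the difference was 0.03 (SE 0.087). The difference between these values, 0.31 (SE 0.13), had an edgeR adjusted p of 0.256.

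The remaining assembly factors differed less. Averaged over vectors, Ndufaf2, which acts late when the N module is attached, differed by -0.04 (SE 0.12), Ndufaf5, which hydroxylates Ndufs7, by -0.02 (SE 0.081), and Ndufaf6, which is needed for making ND1, by 0.02 (SE 0.12). Ndufaf7, a mitochondrial methyltransferase, differed by -0.0025 (SE 0.065). All 4 intervals included 0, and the sign for Ndufaf6 turned in some alternatives.

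Among core subunits, the NADH-binding flavoprotein Ndufv1 differed by -0.04 (SE 0.076) and its neighbour Ndufv2 by -0.15 (SE 0.083). Ndufs1 differed by 0.13 (SE 0.086). Ndufs7, an iron-sulfur subunit at the quinone site, differed by -0.02 (SE 0.066), and the Q-module cores Ndufs3 and Ndufs8 by -0.02 (SE 0.053) and -0.05 (SE 0.082). None of the core subunits passed. Ndufs3 varied least of the 40 genes over the 22 hearts, from 897 to 1155 CPM, with an SD of log2 CPM of 0.090.

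The accessory subunits with the lowest values after Ndufa8 were Ndufb5 of the distal arm at -0.17 (SE 0.055, edgeR adjusted p = 0.115), Ndufc2 at -0.16 (SE 0.11) and Ndufc1 at -0.15 (SE 0.087), both of the proximal arm. Ndufa4 differed by -0.18 (SE 0.080, adjusted p = 0.248) and Ndufa4l2 by -0.09 (SE 0.075). At the other end stood Ndufa11, a membrane subunit related to the Tim17 family, at 0.10 (SE 0.074), and the N-module subunit Ndufs4, whose loss causes Leigh-like disease in mice, at 0.05 (SE 0.078). Ndufb8 of the distal arm stood at 0.04 (SE 0.12). The signs for Ndufs4 and Ndufb8 turned when only shared tables were used.

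By module, the median log2 difference over both vectors was -0.08 in the N module, -0.04 in the Q module, -0.13 in the proximal arm, where ND6 sits, and -0.06 in the distal arm. Within control-vector hearts 9 of 40 genes were lower and 1 was higher in every ND6 heart than in every Ant1-null heart, against 25.3% of all genes that did not overlap in either direction and 13.9% that lay lower. Within mAnt1 hearts 1 was lower and 0 were higher, against 11.0% in either direction and 5.07% lower.

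With the table set as a covariate the median of the 40 genes was -0.04 over both vectors, -0.0033 with the control vector and -0.06 with mAnt1, and edgeR called 0 of 40 in each, against 6.01%, 3.56% and 4.23% of all genes. Limited to the 10 hearts whose tables hold both genotypes, the median over both vectors was -0.08 and again 0 of 40 were called, against 3.49% of all genes. The mAnt1 groups also differed in Slc25a4 itself, at 174 to 241 CPM in Ant1-null hearts and 0.732 to 66.7 CPM in ND6 hearts. Endothelial markers summed to 438 to 443 CPM in Ant1-null and 469 to 521.5 CPM in ND6 hearts with the control vector. With mAnt1 the sums were 541 to 584 and 630 to 677 CPM, and over both vectors edgeR called 0 of 6. Of 8 cardiomyocyte markers 1 rose over both vectors, and within mAnt1 1 rose and 1 fell. Adipocyte markers with mAnt1 summed to 38.6 to 237.9 CPM in Ant1-null and 6.37 to 58.5 CPM in ND6 hearts, and 1 of 4 fell. The part of Slc25a4 and of these markers in the values was not tested.

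**Figure D2:**
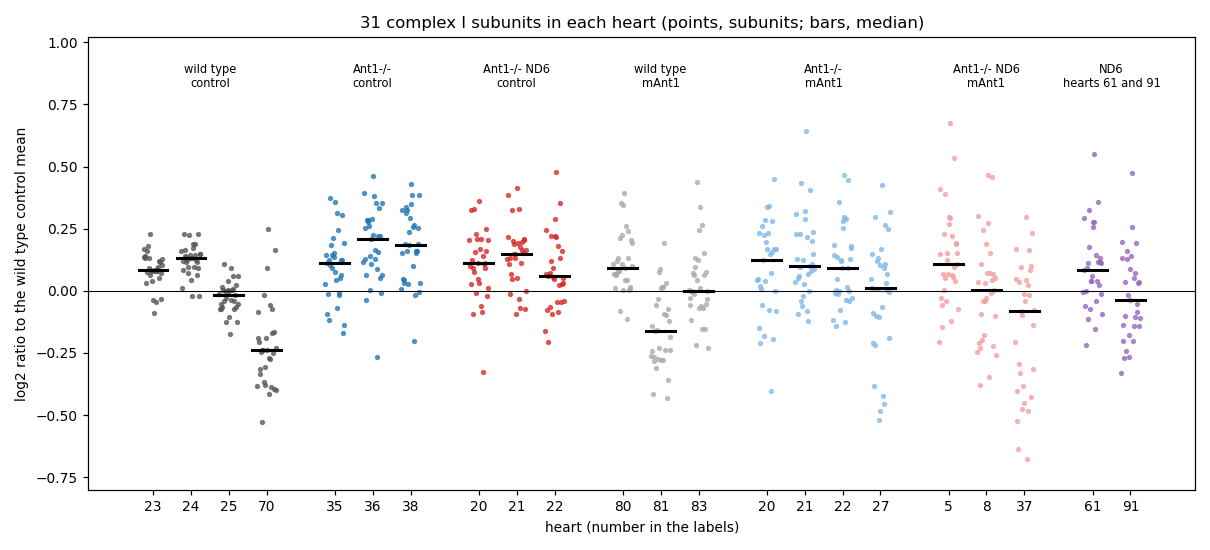
Each of the 31 complex I subunits in each of the 22 hearts, as the log2 ratio of its CPM to the mean of the 4 control-vector wild type hearts (points), with the median of the subunits (bars). Medians run from -0.24 in wild type heart 70 to 0.21 in Ant1-null heart 36, and the points of heart 37 reach from -0.67 to 0.30.

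Heart by heart, the median log2 ratio of the 31 subunits to the wild type control-vector mean was 0.11, 0.21 and 0.19 in control-vector Ant1-null hearts 35, 36 and 38, and 0.11, 0.15 and 0.06 in ND6 hearts 20, 21 and 22. With mAnt1 it was 0.12, 0.10, 0.09 and 0.01 in Ant1-null hearts 20, 21, 22 and 27, and 0.11, 0.0039 and -0.08 in ND6 hearts 5, 8 and 37. The genotypes overlapped under both vectors. Among wild type hearts, number 70 stood at -0.24, with 28 of 31 subunits below 0, and hearts 23, 24 and 25 at 0.09, 0.13 and -0.02. Wild type mAnt1 heart 81 stood at -0.16 with 24 of 31 below 0, and numbers 80 and 83 at 0.09 and -0.0006.

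The second question was how these transcripts differ when Ant1 is lost. With the control vector 5 of 40 genes (12.5%) rose in Ant1-null against wild type hearts and 0 fell, against 14.4% of all genes called and 8.19% called higher. The 5 were the assembly factors Ndufaf1 and Ndufaf3 and the accessory subunits Ndufb7, Ndufb5 and Ndufa10. Of the 40 genes, 14 were higher and 0 lower in every null heart than in every wild type heart, against 26.7% of all genes that did not overlap in either direction. A value above 0 was seen for 35, and the median log2 difference was 0.19, beside -0.03 over all genes. With the table set as a covariate that median was 0.17. In shared tables, the subunit median of null heart 35 (0.11) lay within those of wild type hearts 23, 24 and 25 (0.09, 0.13 and -0.02). Null hearts 36 and 38 (0.21 and 0.19) shared no table with a wild type heart. Wild type heart 70, in other tables, stood at -0.24 and lowers the wild type mean. All 7 assembly factors, all 6 Q-module and all 9 distal-arm subunits had values above 0, and 2, 0 and 2 of them passed. The N module was split, with 4 subunits above 0, 4 below and 0 passing. In the proximal arm 7 were above 0, 1 was below and 1 passed. None of the 7 core subunits passed, their values running from -0.15 for Ndufs1 to 0.31 for Ndufv2.

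Ndufaf1 gave the highest value of the 40. It read 126, 130, 128 and 101 CPM in wild type hearts 23, 24, 25 and 70 and 187, 193 and 186 CPM in Ant1-null hearts 35, 36 and 38, so the groups did not overlap and the 3 null hearts lay close together. Means were 121 ± 13.7 CPM (SD, n = 4) for the wild type and 189 ± 3.84 CPM (SD, n = 3) for the null hearts. It rose 1.56-fold (95% interval 1.38 to 1.77; log2 0.64, SE 0.087, edgeR adjusted p = 3.67e-05). In shared tables, null heart 35 at 187 CPM stood above wild type hearts 23, 24 and 25 at 126 to 130 CPM. The call held in all 15 alternatives, with log2 values from 0.55 to 0.68.

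Ndufb7, a twin-CX9C protein on the intermembrane-space face of the distal arm, read 1511, 1564, 1429 and 1212 CPM in wild type and 1830, 1971 and 1923 CPM in null hearts, without overlap. It rose 1.335-fold (95% interval 1.17 to 1.52; log2 0.42, SE 0.090, edgeR adjusted p = 0.00337), and the call held in all 15 alternatives. Null heart 35 stood above its 3 table companions here as well, at 1830 against 1429 to 1564 CPM. Ndufb7 lies on chromosome 8, as does the knockout allele. The part of linked sequence in its null against wild type values was not tested.

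The other 3 calls were smaller. Ndufaf3 read 75.1, 77.8, 70.9 and 59.2 CPM in wild type and 82.9, 83.8 and 91.0 CPM in null hearts (log2 0.28, SE 0.090, edgeR adjusted p = 0.0394). Ndufb5 read 544, 581, 532 and 465 CPM against 589, 648 and 651 CPM (log2 0.25, SE 0.075, edgeR adjusted p = 0.0308). Ndufa10, which resembles a nucleoside kinase, read 1134, 1040, 980 and 972 CPM against 1140, 1356 and 1146 CPM (log2 0.24, SE 0.079, edgeR adjusted p = 0.0485). None of the 3 overlapped between groups, though for Ndufa10 wild type heart 23 and null heart 35 were close.

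These 3 calls depended on single hearts. Without wild type heart 70 the edgeR adjusted p for Ndufaf3, Ndufb5 and Ndufa10 became 0.115, 0.105 and 0.13. Without null heart 36 the values were 0.065, 0.0953 and 0.264, without null heart 38 0.164, 0.123 and 0.060, and without wild type heart 25 0.0682, 0.0567 and 0.116. Ndufaf3 also missed the threshold without null heart 35 (0.0611) and Ndufa10 without wild type heart 24 (0.0722). With hearts 27 and 37 left out of the common fit, 10 of 40 genes rose, against 20.2% of all genes called in that fit: the same 5 and Ndufaf2, Ndufaf4, Ndufaf5, Ndufc2 and Ndufv2. With the table set as a covariate 5 rose, against 12.5% of all genes called, of which Ndufaf1 and Ndufb7 were shared with the 5 above and Ndufa6, Ndufb9 and Ndufc2 were not.

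Fibroblast markers moved in the same comparison. The 8 markers summed to 2682 to 2812 CPM in control-vector wild type hearts and 1786 to 2210 CPM in null hearts, and 4 of 8 fell. The 5 liver markers summed to 33.6 to 252.8 CPM and 17.1 to 22.4 CPM, and 3 of the 4 tested fell. In smooth muscle markers 1 of 3 fell, and in endothelial markers 1 of 6 rose. Cardiomyocyte markers summed to 61410 to 71040 CPM and 66290 to 71480 CPM, with 0 of 8 called by edgeR. No marker of these lists was at 0 in either group. The part of these markers in the complex I values was not tested.

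With mAnt1 2 of 40 genes (5%) rose in Ant1-null against wild type hearts and 0 fell, against 9.89% of all genes called and 5.37% called higher. They were Ndufb7 (log2 0.37, SE 0.092, edgeR adjusted p = 0.0122) and Ndufaf1 (log2 0.34, SE 0.088, edgeR adjusted p = 0.0173). Ndufaf1 read 114, 110 and 114 CPM in wild type hearts 80, 81 and 83 and 144, 140, 135 and 151 CPM in null hearts 20, 21, 22 and 27. Ndufb7 read 1431, 1178 and 1361 CPM in wild type and 1807, 1745, 1703 and 1604 CPM in null hearts. Neither gene overlapped between groups. Of the 40 genes, 7 were higher and 0 lower in every null heart, against 20.0% of all genes in either direction and 10.3% higher. The 8 fibroblast markers summed to 2422 to 2516 CPM in wild type and 2060 to 2456 CPM in null hearts, and 1 fell. The 7 macrophage markers summed to 154 to 195 CPM and 109 to 147 CPM, and 1 of 6 tested fell. Of the 8 cardiomyocyte markers 1 rose and 1 fell. The part of these markers was not tested.

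In shared tables, null heart 20 stood above the 3 wild type hearts for both genes, at 144 against 110 to 114 CPM and at 1807 against 1178 to 1431 CPM. Without wild type heart 81 the edgeR adjusted p was 0.0693 for Ndufaf1 and 0.0806 for Ndufb7, and Ndufaf1 also missed the threshold without heart 80 (0.0508) or 83 (0.0567). Without hearts 27 and 37 there were 4 calls, with Ndufa11 and Ndufaf3 added, against 13.7% of all genes. With the table set as a covariate there were also 4, with Ndufaf3 and Ndufs8 added, against 6.04% of all genes.

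The effect of Ant1 loss was tested for a difference between vectors, a comparison added after seeing the data. It differed for 0 of 40 genes in edgeR, against 0.5% of all genes, with 4 at an unadjusted p under 0.05. For Ndufaf1 the log2 difference between vectors was -0.30 (95% interval -0.56 to -0.045, edgeR adjusted p = 0.262) and for Ndufaf4 -0.49 (95% interval -0.79 to -0.18, edgeR adjusted p = 0.126). For Ndufb7 it was -0.04 (95% interval -0.31 to 0.22).

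Ant1-null ND6 hearts were set against the same wild type hearts, so these values share their controls with those above. With the control vector 3 of 40 genes rose and 0 fell, against 12.7% of all genes called and 6.71% called higher: Ndufaf1 (log2 0.36, SE 0.087, edgeR adjusted p = 0.00926), Ndufb7 (log2 0.33, SE 0.091, edgeR adjusted p = 0.0181) and Ndufa11 (log2 0.32, SE 0.10, edgeR adjusted p = 0.0394). ND6 hearts 20, 21 and 22 read 1837, 1904 and 1665 CPM for Ndufb7, all above the 4 wild type hearts. For Ndufa11 they read 1010, 1051 and 954 CPM, and wild type hearts 23, 24, 25 and 70 read 886, 853, 777 and 705 CPM. The groups did not overlap in any of the 3 genes. Of the 40, 7 were higher and 0 lower in every ND6 heart, against 26.3% of all genes in either direction and 13.8% higher.

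In shared tables, ND6 heart 22 read 141 CPM for Ndufaf1, 1665 for Ndufb7 and 954 for Ndufa11, and wild type heart 70 read 101, 1212 and 705. Without ND6 heart 21 none of the 3 calls was left (edgeR adjusted p 0.0746 for Ndufaf1, 0.0882 for Ndufb7 and 0.1405 for Ndufa11). Ndufb7 also missed the threshold without ND6 heart 20 (0.0645) or wild type heart 70 (0.061). Ndufa11 did so without ND6 heart 20 (0.101) or 22 (0.0758) or wild type heart 25 (0.0822) or 70 (0.115). With the table set as a covariate 5 rose, against 10.7% of all genes called: Ndufaf1, Ndufb7, Ndufa6, Ndufb9 and Ndufs8. Without hearts 27 and 37 there were 4 calls, with Ndufaf2 added, against 17.8% of all genes.

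Markers of other cells moved here too. Of the 8 fibroblast markers 3 fell, with sums of 2085 to 2257 CPM in ND6 and 2682 to 2812 CPM in wild type hearts. Of the liver markers 3 of 4 tested fell (sums of 12.7 to 18.1 against 33.6 to 252.8 CPM), and of the macrophage markers 2 of 6 tested fell (99.8 to 128.5 against 145 to 187.5 CPM). In cardiomyocyte markers 1 of 8 rose, and in smooth muscle markers 1 of 3 fell. The part of these markers was not tested.

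With mAnt1 2 of 40 genes rose and 1 fell in Ant1-null ND6 against wild type hearts, against 19.5% of all genes called, 10.8% higher and 8.71% lower. Of the 40 genes, 5 were higher and 2 lower in every ND6 heart, against 34.1% of all genes that did not overlap. Ndufaf1 rose (log2 0.37, SE 0.094, edgeR adjusted p = 0.00911), at 144, 136 and 156 CPM in hearts 5, 8 and 37 against 110 to 114 CPM. Ndufa11 rose (log2 0.32, SE 0.11, edgeR adjusted p = 0.039), at 1071, 993 and 832 CPM against 843, 682 and 790 CPM in hearts 80, 81 and 83, with overlap through heart 37. Ndufaf4 fell by 0.43 on the log2 scale (SE 0.11, edgeR adjusted p = 0.0111), at 104 to 123 CPM against 155, 159 and 141 CPM, without overlap.

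No ND6 mAnt1 heart shared a table with a wild type heart, and with the table set as a covariate the Ndufaf4 difference was -0.18 (edgeR adjusted p = 0.601). Without heart 8, whose Slc25a4 reads were at the control-vector level, Ndufaf4 was at -0.37 (edgeR adjusted p = 0.0534), Ndufa11 at 0.30 (edgeR adjusted p = 0.101) and Ndufaf1 still passed. Without hearts 27 and 37 there were 4 calls, against 19.6% of all genes: Ndufaf1 (0.30, edgeR adjusted p = 0.0363), Ndufa11 (0.41, 0.00815), Ndufaf4 (-0.51, 0.000414) and, in addition, Ndufs4 (0.34, 0.0127). Ndufa11 also missed the threshold without heart 5 (0.166), 81 (0.186) or 83 (0.0782). The 6 endothelial markers summed to 630 to 677 CPM in these ND6 hearts and 480 to 537 CPM in wild type hearts, and 3 of 6 rose. Fibroblast markers summed to 2019 to 2404 against 2422 to 2516 CPM, with 2 rising and 1 falling, and of the cardiomyocyte markers 2 rose and 2 fell. In macrophage markers 1 of 6 tested fell (112 to 172 against 154 to 195 CPM), and in smooth muscle markers 1 of 3 rose and 1 fell. The part of these markers was not tested.

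**Figure D3:**
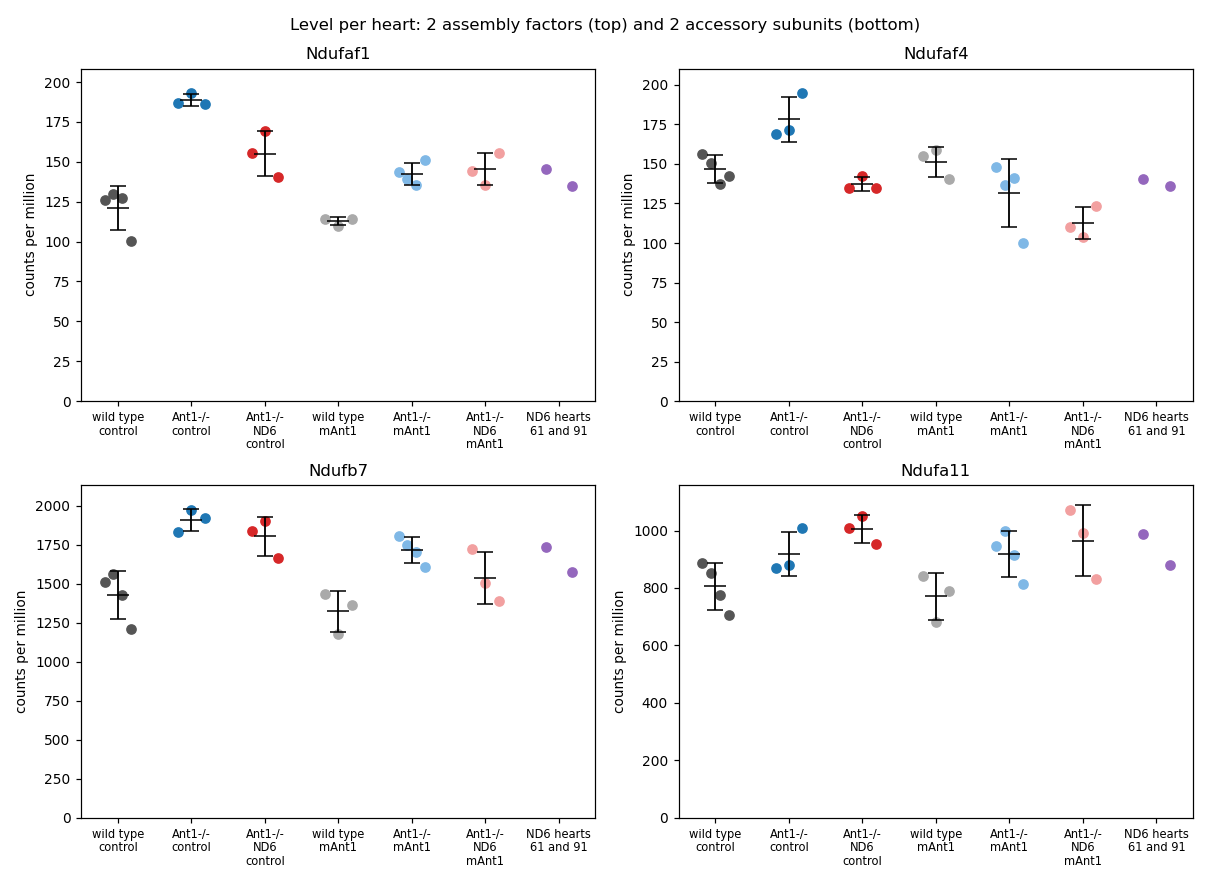
CPM of Ndufaf1, Ndufaf4, Ndufb7 and Ndufa11 in each heart (points) by group, with the mean and SD (bars) for groups of 3 or more hearts. For Ndufaf1 the 3 control-vector Ant1-null hearts, at 186 to 193 CPM, lie above all other hearts, and the wild type hearts of both vectors, at 101 to 130 CPM, lie below all others.

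The third question was how the mAnt1 vector groups differ from the control-vector groups within a genotype. These groups share no table, so each difference below may be one of vector or of table. In Ant1-null hearts 0 of 40 genes rose and 2 fell, against 5.47% of all genes called and 3.27% called lower. Ndufaf4 fell by 0.44 on the log2 scale (SE 0.10, edgeR adjusted p = 0.0188) and Ndufaf1 fell by 0.40 (SE 0.087, edgeR adjusted p = 0.0122). For both, the 3 control-vector hearts, at 169 to 195 CPM and 186 to 193 CPM, lay above the 4 mAnt1 hearts, at 99.8 to 148 CPM and 135 to 151 CPM. Of the 40 genes, 10 were lower and 0 higher in every mAnt1 heart, against 18.2% of all genes in either direction and 9.75% lower. All 7 assembly factors had values below 0, from -0.03 for Ndufaf7 to -0.44, and the median of the 40 genes was -0.11, beside 0.01 over all genes.

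Neither call held without Ant1-null heart 36, where the edgeR adjusted p was 0.0512 for Ndufaf4 and 0.0546 for Ndufaf1. Ndufaf4 also missed the threshold without heart 38 (0.102). Without hearts 27 and 37 both held, at -0.33 (adjusted p = 0.0117) for Ndufaf4 and -0.43 (adjusted p = 0.00584) for Ndufaf1. The 6 endothelial markers summed to 438 to 443 CPM in control-vector and 541 to 584 CPM in mAnt1 hearts, and 1 of 6 rose. Fibroblast markers summed to 1786 to 2210 and 2060 to 2456 CPM, and 1 of 8 rose, while 1 of 8 cardiomyocyte markers rose and 1 fell. The part of these markers was not tested.

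In Ant1-null ND6 hearts 0 of 40 genes passed in edgeR, against 2.53% of all genes, with 7 at an unadjusted p under 0.05. DESeq2 called 0 of 40, against 5.34% of all genes. Ndufaf4 was at -0.29 (SE 0.11, edgeR adjusted p = 0.161), and without hearts 27 and 37 it was at -0.36 and passed (edgeR adjusted p = 0.024). Ndufa2, an N-module subunit, gave the lowest value, -0.36 (SE 0.12, edgeR adjusted p = 0.107). The median of the 40 genes was -0.12, and 10 were lower and 0 higher in every mAnt1 heart, against 24.9% of all genes in either direction and 11.9% lower. In wild type hearts 0 of 40 passed in edgeR, against 0.117% of all genes, with 0 at an unadjusted p under 0.05. DESeq2 called 0 of 40, against 1.03% of all genes. The median there was -0.03, and the Ndufaf1 and Ndufaf4 values were -0.10 (SE 0.088) and 0.05 (SE 0.11).

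**Figure D4:**
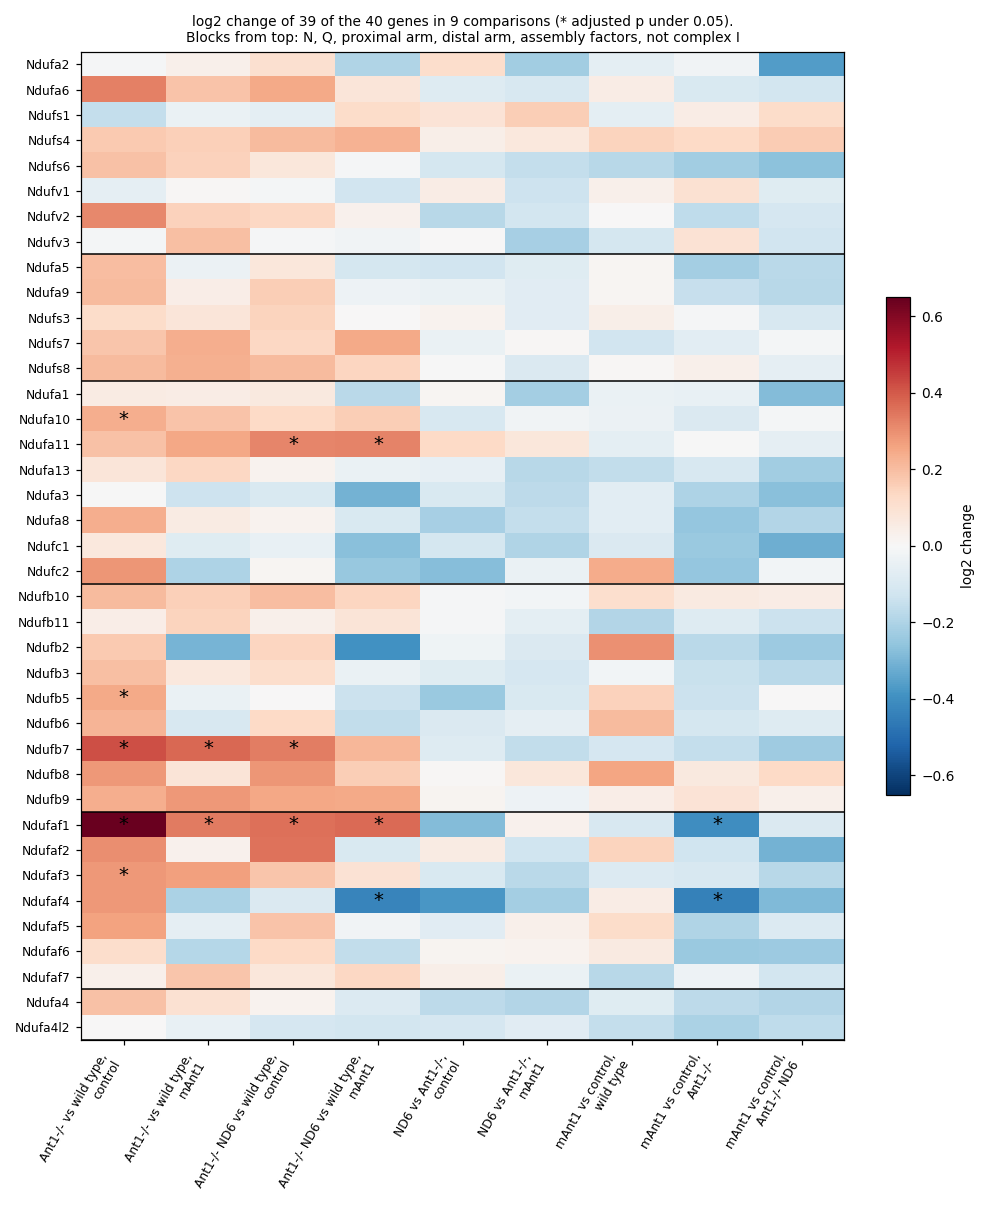
Log2 difference of 39 of the 40 genes in 9 comparisons (colour scale), with an asterisk where the edgeR adjusted p is under 0.05; comparisons that share a group are not independent. Ndufaf1 passes in all 4 comparisons with wild type hearts, at 0.34 to 0.64, and neither single-vector ND6 column holds an asterisk.

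Other genes that help to build complex I but do not carry the Nduf name were read from a list of 14, of which 11 had an amplicon: Acad9, Aifm1, Ecsit, Foxred1, Lyrm2, Nubpl, Timmdc1, Tmem126a, Tmem126b, Tmem186 and Tmem70. Between ND6 and Ant1-null hearts 1 of the 11 fell over both vectors and 0 rose, against 1.87% of all genes called. It was Tmem126b, which works in the same membrane-arm assembly complex as Ndufaf1. Tmem126b read 58.0, 74.0 and 62.15 CPM in control-vector Ant1-null hearts 35, 36 and 38 and 48.5, 47.8 and 44.55 CPM in ND6 hearts 20, 21 and 22. With mAnt1 it read 43.0 to 45.8 CPM in the 4 Ant1-null hearts and 36.1 to 37.9 CPM in the 3 ND6 hearts. The genotypes did not overlap under either vector, and hearts 61 and 91 read 44.8 and 41.7 CPM.

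Over both vectors Tmem126b fell by 0.37 on the log2 scale (SE 0.074, edgeR adjusted p = 0.0155), and the adjusted p lay between 0.00048 and 0.0547 over 22 alternatives, 1 of which missed the threshold. Within the control vector it fell by 0.46 (SE 0.11, edgeR adjusted p = 0.0377), a call that 7 of 15 alternatives did not keep. Between vectors in Ant1-null hearts it was lower by 0.54 in the mAnt1 group (SE 0.10, edgeR adjusted p = 0.00565). The vector groups share no table, so vector and table cannot be told apart there.

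With the control vector 5 of the 11 rose in Ant1-null against wild type hearts and 0 fell, against 14.4% of all genes called and 8.19% called higher. They were Tmem126a (log2 0.57, SE 0.12, edgeR adjusted p = 0.00322), Timmdc1 (log2 0.44, SE 0.089, edgeR adjusted p = 0.00171), Foxred1 (log2 0.39, SE 0.088, edgeR adjusted p = 0.00462), Lyrm2 (log2 0.32, SE 0.096, edgeR adjusted p = 0.0275) and Aifm1 (log2 0.22, SE 0.072, edgeR adjusted p = 0.0456). Timmdc1 takes part in building the proximal arm, Tmem126a in building the distal arm, and Foxred1 is a flavoprotein needed late in assembly. The Tmem126a, Timmdc1 and Foxred1 calls held in all 15 alternatives, whereas Lyrm2 missed the threshold in 5 and Aifm1 in 9. Timmdc1 read 120, 114, 107 and 93.8 CPM in wild type and 141, 143 and 159 CPM in null hearts, without overlap.

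With mAnt1 2 of the 11 rose and 2 fell in Ant1-null against wild type hearts, against 9.89% of all genes called. Those that rose were Foxred1 (log2 0.35, edgeR adjusted p = 0.0155) and Ecsit (log2 0.33, edgeR adjusted p = 0.017), calls that 1 and 3 of 15 alternatives did not keep. Tmem126b and Tmem70 fell by 0.32 each (edgeR adjusted p 0.045 and 0.034), calls that 12 and 6 of 15 alternatives did not keep. In Ant1-null ND6 against wild type hearts 1 of 11 rose with the control vector (Lyrm2), against 12.7% of all genes called. That call was not kept in 9 of 15 alternatives. With mAnt1 2 rose (Foxred1 and Lyrm2) and 2 fell, Tmem126b by 0.59 and Tmem70 by 0.42 (edgeR adjusted p 0.000743 and 0.00599), against 19.5% of all genes called. The Lyrm2 groups overlapped there, and 6 of 14 alternatives did not keep its call. Foxred1 and Tmem70 each missed the threshold in 1 alternative, and Tmem126b in 0. Between vectors in Ant1-null hearts 4 of 11 fell, Tmem126a, Tmem126b, Timmdc1 and Tmem70, and 0 rose, against 5.47% of all genes called and 3.27% called lower. Tmem126b and Tmem70 kept that call in all 14 alternatives, and Tmem126a and Timmdc1 missed the threshold in 2 and 4.

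The nuclear genes of the other respiratory complexes give the setting for these values. For the ND6 allele over both vectors, the 31 complex I subunits had a median log2 difference of -0.06, beside -0.11 for 8 genes of complex II, -0.06 for 15 of complex III, -0.09 for 20 of complex IV and -0.11 for 12 of complex V, where 0, 0, 1 and 0 genes fell and 0 rose, against 1.87% of all genes called. For Ant1 loss with the control vector the subunit median of 0.19 stood beside 0.16, 0.20, 0.16 and 0.04, where 2, 5, 4 and 0 genes rose and 0 fell, against 14.4% of all genes called and 8.19% called higher. The lists of complexes II to V include assembly factors, whereas the complex I list holds subunits only, and Ndufa4 is in none of them. No test of a difference between the complexes was made.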

How the data were processed

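Mouse heart RNA was read on a transcriptome amplicon panel, with mm10 as the build per the submitters' processing notes. The deposited tables hold raw counts per amplicon, 14 tables of 8 libraries; the sources used here name no aligner. Library totals were 2893780 to 8531273 counts. Libraries were summed per heart, 2 libraries with conflicting labels and 3 single-nucleus samples were not analysed here, and 22 hearts in 7 groups entered 1 fit.

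Levels of hearts are CPM over TMM-scaled totals (factors 0.9593 to 1.058), and levels of single libraries are CPM over raw library totals. Log2 ratios and SDs between hearts used these CPM unchanged. The SD between libraries used CPM with a small constant added. Tests used edgeR 4.0.16 (R 4.3.3, limma 3.58.1): quasi-likelihood F-test, filter on low counts by group, Benjamini-Hochberg adjustment over 15403 genes, threshold 0.05. Alternatives were DESeq2 1.42.0, RLE size factors, no filter, only the compared groups, the table set as covariate, only shared tables, hearts 61 and 91 under either label, and each heart left out. Of the members, 1 entered all counts and medians and is not reported here by itself. Genes named were members past the threshold, the 6 highest and lowest ND6 differences, core subunits, assembly factors, Ndufa4, Ndufa4l2, listed assembly genes past the threshold, and Slc25a4. The members and lists were chosen with earlier results of these data known.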

Additional observations from a re-analysis of the deposited data

Results flagged for a closer look

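Of 82 sets of hearts of 1 group and gene that were examined, 5 held a heart far from the others, and chance alone gives about 1 in 20. In control-vector wild type hearts, heart 70 read 565.5 CPM for Ndufa6, a LYR-motif subunit of the N module, while the others read 878.9 to 923.3 CPM. The same heart read 100.6 CPM for Ndufaf1, while the others read 125.7 to 129.9 CPM. Heart 70 sat in other tables than hearts 23, 24 and 25. In mAnt1 Ant1-null hearts, heart 27 read 21.74 CPM for Ndufaf2 against 38.17 to 39.72 CPM, and 713.6 CPM for Ndufc1 against 877 to 907.4 CPM. It is one of the 2 hearts whose libraries differed most. Within 1 table its libraries ran from 13.1 to 31.15 CPM for Ndufaf2 and from 373 to 1087 CPM for Ndufc1. Heart 22 of that group read 1027 CPM for Ndufa1, a small membrane-arm subunit, against 1142 to 1151 CPM.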

How the results depend on the processing

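Counts of called members that moved by over 1.5 times, or between 0 and any, were as follows, and smaller moves are not listed. Percentages in brackets are the share of all genes called in the same comparison and setting, which moved as well. With DESeq2, the ND6 allele gave 2 over both vectors (4.34%) and 1 with the control vector (3.22%), and Ant1 loss with mAnt1 gave 4 (12.4%). Without the low-count filter, the ND6 allele over both vectors gave 0 (0.82%) and Ant1 loss with the control vector 2 (7.9%). With only the compared groups, these gave 0 (0.969%) and 3 (14.8%), the ND6 allele with the control vector 1 (6.05%), and mAnt1 in Ant1-null hearts 1 (1.71%). With the table set as covariate, the ND6 allele over both vectors gave 0 (6.01%), and also 0 with shared tables alone (3.49%). In the same setting Ant1 loss with mAnt1 gave 4 (6.04%). Ant1-null ND6 against wild type gave 5 with the control vector (10.7%) and 1 with mAnt1 (7.9%). Counting hearts 61 and 91 as mAnt1 gave 0 for the ND6 allele over both vectors (1.12%), and as control 2 within that vector (4.2%). Without hearts 27 and 37 the ND6 allele gave 1 with the control vector (3.89%) and 1 with mAnt1 (6.32%). Ant1 loss then gave 10 with the control vector (20.2%) and 4 with mAnt1 (13.7%), and mAnt1 in Ant1-null ND6 hearts gave 1 (3.99%).

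Leaving out 1 heart at a time gave 0 to 1 calls for the ND6 allele over both vectors (0.627% to 3.18% of all genes). It gave 0 to 1 within mAnt1 (0.539% to 5.03%) and 0 within the control vector (0.299% to 0.514%). Ant1 loss gave 2 to 6 with the control vector (8.91% to 12.9%) and 0 to 3 with mAnt1 (5.08% to 10.7%). Ant1-null ND6 against wild type gave 0 to 3 (6.53% to 11.1%) and 1 to 4 (12.2% to 16.8%). For mAnt1 in Ant1-null hearts there were 0 to 2 (1.44% to 6.83%), and 0 elsewhere (at most 3.7%). Of the single-gene values over all alternatives, 384 kept direction and side of the threshold, 66 lost a call, 1 gained one (Ndufb5, ND6 allele, DESeq2, adjusted p = 0.0442) and 11 turned sign, each for an uncalled ND6 difference near 0: Ndufaf6 (-0.025 with hearts 61 and 91 as control), Ndufb8 (-0.044 with the table set, -0.083 with shared tables alone) and Ndufs4 (-0.0043 with shared tables alone). Leaving out 1 heart took Ndufaf6 between -0.047 and 0.089 and Ndufb8 between -0.032 and 0.119. The cause was not tested. No paired analysis was possible because the groups compared share fewer than 2 heart numbers.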
